A study of Mus musculus with 7 samples.

Results

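The genes described here encode the nuclear part of the oxidative phosphorylation machinery of mitochondria. They are the protein-coding genes whose symbols begin with Nduf (followed by a, b, c, s or v), Uqcr, Cox4 to Cox8 or Atp5, together with Sdha, Sdhb, Sdhc and Sdhd, and whose mean normalized read count over the 7 libraries was at least 10. Of 16476 genes in the deposited table, 88 protein-coding genes bore such a name and 86 reached the minimum. Just inside it lay Cox6b2 with a mean of 14.0 normalized counts, and just outside it Cox7a1 with 9.59 and Cox6a2 with 7.03, which are forms of complex IV subunits typical of testis (Cox6b2) or of heart and skeletal muscle (Cox7a1 and Cox6a2). By complex, the 86 genes fell into 45 of complex I, 4 of complex II, 8 of complex III, 12 of complex IV and 17 of complex V. These counts follow the symbols, so that 8 assembly factors of complex I (Ndufaf), the supercomplex factor Cox7a2l, the complex V coupling factor Atp5s and the assembly factor Atp5sl are included. Atp5sl, counted with complex V by its symbol, is now known as an assembly factor of complex I, and Ndufa4, now known as a subunit of complex IV, stands under complex I.

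RNA was sequenced from cells washed out of the lungs of C57BL/6 mice 3 days after lipopolysaccharide, a component of bacterial walls that inflames the airspaces, had been instilled into the trachea. The KO group comprised 3 libraries from Ntn1 knockouts (KO) that carried floxed Netrin1 alleles (Netrin1loxp/loxp) and the LysM Cre allele, and the control group 4 libraries from mice with LysM Cre alone. Netrin-1 is a secreted guidance protein. By the labels, every library shared the Cre allele, the lipopolysaccharide and the antibody-based removal of neutrophils from the lavage. LysM Cre is active mainly in macrophages, monocytes and neutrophils, so other cells in the lavage may keep an intact Ntn1 gene. Which cells kept it was not tested. The labels do not say that each library came from a separate mouse, and p-values here measure the spread between libraries. The animals' age and sex are not given in the labels.

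Complexes I to IV form the respiratory chain of the inner mitochondrial membrane. Complex I oxidises NADH and complex II succinate, both pass electrons to ubiquinone, complex III hands them to cytochrome c, and complex IV reduces oxygen. Complexes I, III and IV pump protons, and complex V, the ATP synthase, uses the return of those protons to make ATP. Except for complex II, each complex also holds subunits encoded by mitochondrial DNA. In macrophages, the balance between oxidative phosphorylation and glycolysis is known to shift with the state of activation.

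RefSeq promoter windows (GRCm38.p6; 250 bases before to 50 bases after an annotated start) were matched for 74 of the 86 genes, giving 80 windows. They were searched on both strands for motifs of factors known from the promoters of respiratory genes. The core of the NRF1 motif, CGCNTGCG, was present in 41.2% of the members' windows and in 8.21% of all 32851 windows. The GABPA motif CCGGAAG was present in 22.5% against 8.86%, and the YY1 motif AANATGGCG in 16.2% against 2.38%. At least one of these 3 was found in 63.7% of the members' windows and 17% of all windows. The ERR motif TCAAGGTCA was present in 2.5% against 0.423%, and the SP1 motif GGGCGGGG in 20% against 17.6%. In no member window did any of these matches overlap one another. The median log2 fold change, KO over control, was 0.12 for the 47 matched members with NRF1, GABPA or YY1 in a window and 0.15 for the 27 with none. Matches are given as a description of the sequence only. Genes without a matched window included Atp5a1, Cox4i1, Cox6c, Ndufa2, Ndufaf6, Ndufb9, Ndufs1, Sdhc, Uqcrb, Uqcrc2 and Uqcrq.

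Of the 9 members past the threshold described below, all 9 were matched and 5 held NRF1, GABPA or YY1. The windows of 5 of them are shown here. Ndufa4 (chr6:11907401-11907700, minus strand) and Atp5d (chr10:80142065-80142364, plus strand; one of its overlapping windows) are the members whose call held under every alternative tried; Ndufa4 held none of the 3 motifs and Atp5d held NRF1. Ndufb11 (chrX:20617570-20617869, minus strand) held YY1, Uqcrh (chr4:116075021-116075320, minus strand) held GABPA read on the other strand, and Ndufaf4 (chr4:24897833-24898132, plus strand), the member called lower, also held NRF1. Sequences run 5′ to 3′ on the gene's strand, and capitals mark those matches.
Ndufa4: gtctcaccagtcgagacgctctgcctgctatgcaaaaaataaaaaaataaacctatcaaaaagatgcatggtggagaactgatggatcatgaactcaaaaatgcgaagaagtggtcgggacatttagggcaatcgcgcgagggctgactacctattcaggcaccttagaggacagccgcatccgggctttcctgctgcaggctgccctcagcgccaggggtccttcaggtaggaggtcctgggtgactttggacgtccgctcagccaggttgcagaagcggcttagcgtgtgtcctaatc
Atp5d: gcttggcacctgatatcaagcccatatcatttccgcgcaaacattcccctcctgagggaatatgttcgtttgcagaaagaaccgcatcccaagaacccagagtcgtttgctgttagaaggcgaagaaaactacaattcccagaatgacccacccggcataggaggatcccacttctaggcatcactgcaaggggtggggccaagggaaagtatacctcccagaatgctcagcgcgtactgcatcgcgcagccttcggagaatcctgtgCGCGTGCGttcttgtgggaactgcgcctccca
Ndufb11: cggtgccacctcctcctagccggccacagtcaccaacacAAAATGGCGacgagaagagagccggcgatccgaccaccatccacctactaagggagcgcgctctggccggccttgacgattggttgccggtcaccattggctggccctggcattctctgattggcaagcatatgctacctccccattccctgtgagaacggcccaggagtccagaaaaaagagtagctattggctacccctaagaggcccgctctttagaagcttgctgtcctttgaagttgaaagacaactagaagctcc
Uqcrh: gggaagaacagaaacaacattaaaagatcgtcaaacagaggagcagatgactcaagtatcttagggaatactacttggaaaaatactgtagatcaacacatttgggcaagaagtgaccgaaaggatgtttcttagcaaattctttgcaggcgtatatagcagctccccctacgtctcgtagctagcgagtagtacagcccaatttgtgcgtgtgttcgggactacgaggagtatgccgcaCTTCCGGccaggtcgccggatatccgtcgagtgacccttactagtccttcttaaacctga
Ndufaf4: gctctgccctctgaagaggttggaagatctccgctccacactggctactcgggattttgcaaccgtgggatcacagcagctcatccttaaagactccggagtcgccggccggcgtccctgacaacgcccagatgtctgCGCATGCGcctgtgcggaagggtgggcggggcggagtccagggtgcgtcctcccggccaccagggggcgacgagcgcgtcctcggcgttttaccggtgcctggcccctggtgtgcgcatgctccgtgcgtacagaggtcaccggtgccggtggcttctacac

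The reads behind the deposited values came to between 12224835 and 13182585 in KO libraries and between 9903284 and 13353733 in control libraries. Ntn1 itself had 2 reads in all KO libraries together and 17 in all control libraries together (log2 difference -1.53, 2-sided exact permutation test, p = 0.0571; smallest possible p 0.0286 over 35 splits), so the targeted gene was near the limit of detection in both groups. Lyz2, the gene that carries the Cre insertion, had 936, 1052 and 909.7 normalized counts in KO libraries 1 to 3, against 76927, 770.1, 721 and 118781 in control libraries 1 to 4. Control libraries 1 and 4 thus stood apart from the other 5 libraries. The labels give all 4 controls 1 genotype, LysM Cre, without the number of Cre copies, and whether these controls differ in genotype was not tested. Counts of calls are given below also without them. KO library 1 held more counts from neutrophil markers than any other library. Of 14 such markers 8 passed the test as higher, and their summed level was 125721 there, against 50331 and 54591 in KO libraries 2 and 3 and 38399 to 43871 in the controls. Erythroid markers summed to 136707 in KO library 1 and to between 1254 and 26211 in the other 6 libraries. Of 12 natural killer cell markers, 12 passed the test as higher, and their sum was between 54532 and 60559.9 in KO libraries, against 11835 to 19302 in control libraries. Markers of monocytes and recruited macrophages had 2 higher and 7 lower of 12, with sums between 33949 and 41592 in KO libraries, against 52814 to 73316 in control libraries. Of 12 resident alveolar macrophage markers, 11 had positive log2 fold changes (median 0.28), and 1 was called, as lower. Their sums were between 74921 and 123726 in KO libraries, against 58856 to 93911 in control libraries. Of 13 epithelial markers, 9 passed the test as higher, with sums between 1117 and 1505 in KO libraries, against 566 to 786 in control libraries. In every library this was the lowest sum of the marker lists. Of 4 general leukocyte markers 2 were higher, with sums between 49685 and 52108 in KO libraries, against 40295 to 42775 in control libraries, and of 10 T cell markers 2 were higher, with sums between 8180.0 and 10836 in KO libraries, against 6664 to 8044 in control libraries. The sums of natural killer cell, monocyte, epithelial, leukocyte, T cell and neutrophil markers did not overlap between groups, and their part in the members' differences was not tested beyond the neutrophil score below. A large part of the T cell sums came from Thy1, which averaged 3675 in KO cells and 2231 in control cells. Of the 10 T cell markers, 5 had positive and 5 had negative log2 fold changes, with a median of -0.0057. In these lists none of the markers was at 0 in all libraries. In such mixed samples, a lower share of cells rich in a transcript cannot be told apart from less of that transcript per cell.

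Most oxidative phosphorylation genes had small positive differences, KO over control. The 95% interval lay above 0 in 22 of 86 and below 0 in 2. Of all 12963 tested genes it lay above 0 in 2347 and below 0 in 2394. Genes were compared on the log2(normalized count + 1) scale with limma over 12963 genes, and a gene was called at a Benjamini-Hochberg adjusted p under 0.05. Of the 86 members 8 were called higher in KO cells (9.30%, where 10.4% of all tested genes were) and 1 was called lower (where 11.3% of all tested genes were). In either direction 10.5% of members were called, against 21.7% of all tested genes. The share of members called higher was therefore close to the background. The log2 fold change was positive in 74 of 86 members (86.0%) and in 51.9% of all tested genes, with a median of 0.13 in members and 0.014 in all tested genes. Members ranged from -0.37 (Ndufaf4) to 0.73 (Cox6b2), none reached a change of 1 in either direction, and in 71 of 86 the 95% interval lay within 0.5 of no difference. The values of the 3 KO libraries all lay above the 4 controls in 22 members (17.4% of all tested genes did so) and all below in 2 (16.3%), where 33.8% of tested genes did one or the other. In the authors' deposited table, 7 members were higher at an adjusted p under 0.05, where 8.92% of its genes with an adjusted p were, and 0 were lower.

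**Figure D1:**
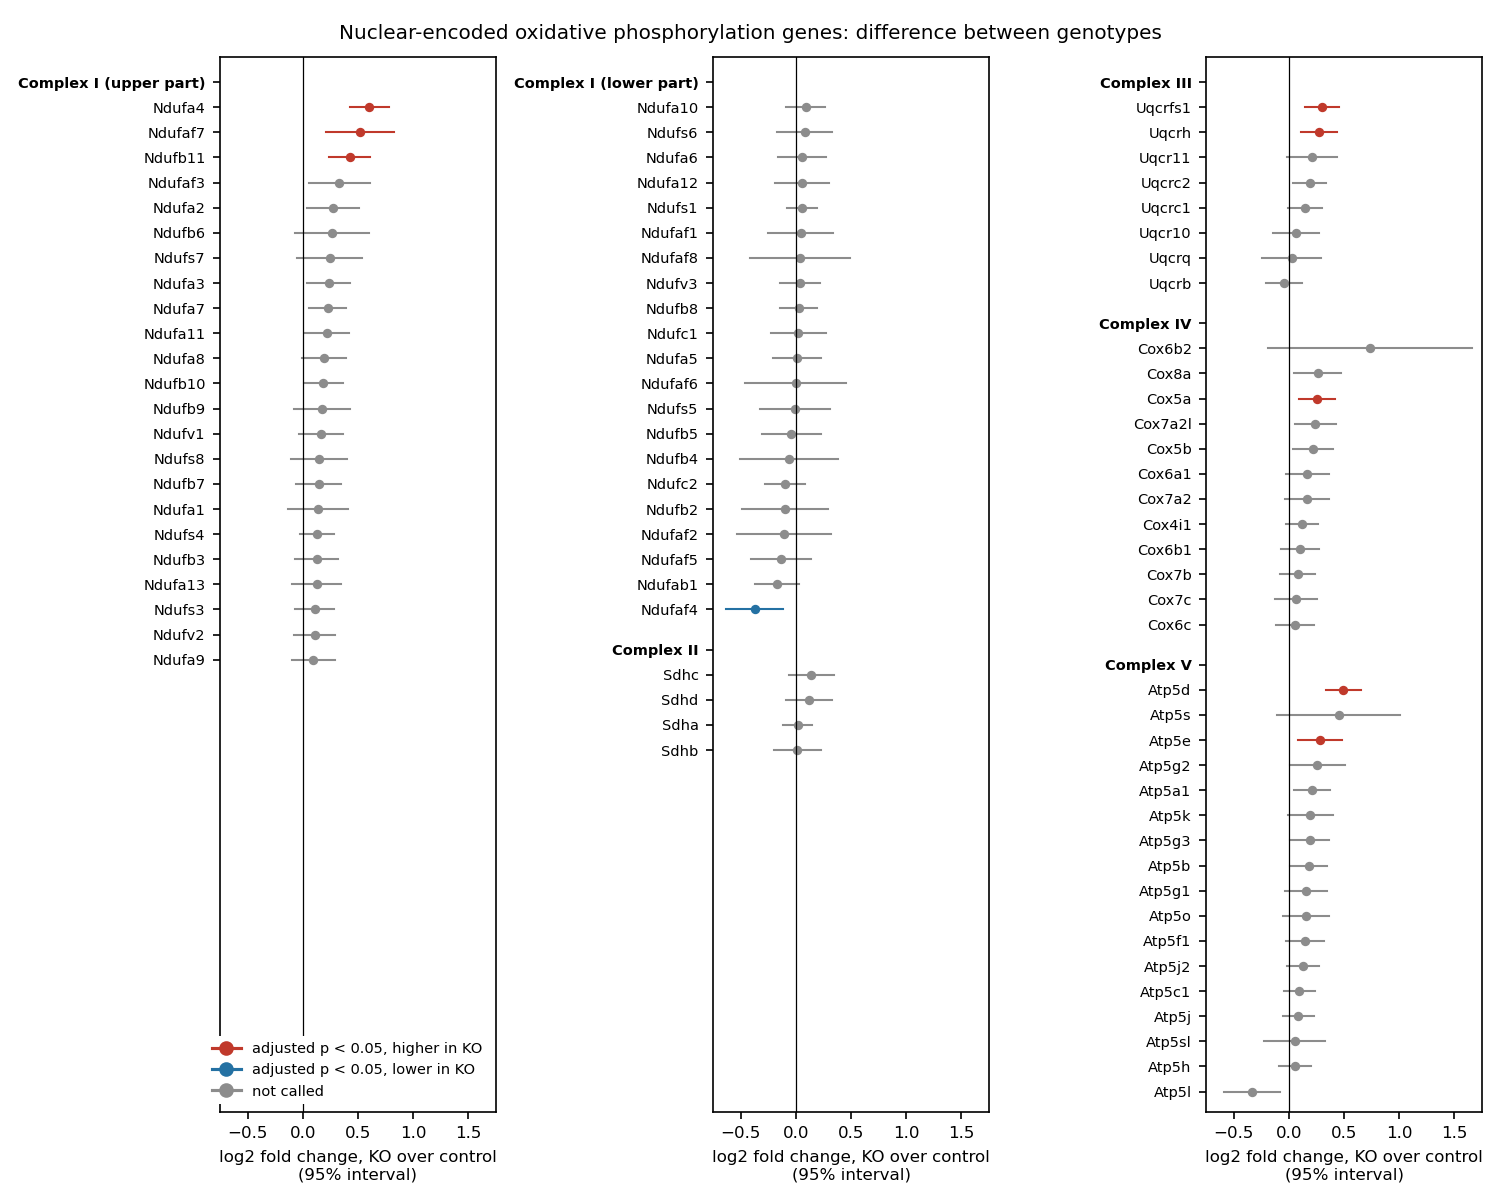
Log2 fold change of 85 of the 86 genes, KO over control, with its 95% interval from limma, grouped by the complex of the symbol; complex I includes its Ndufaf assembly factors and Ndufa4. Of the points, 73 lie right of 0; 8 are coloured as higher and Ndufaf4 alone as lower.

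As a share of all reads, the 86 genes together took 0.607, 0.608 and 0.590% in KO libraries 1 to 3, against 0.549, 0.507, 0.560 and 0.521% in control libraries 1 to 4. The 3 KO shares all lay above the 4 control shares. The mean log2 level over the 86 genes was 8.95 ± 0.060 in KO libraries and 8.82 ± 0.068 in control libraries (SD), a difference of 0.13; KO library 3 fell just under control library 1. Single libraries stood out: KO library 1 was the highest of the 7 in 46 of the 86 genes, and control library 2 was the lowest in 51. Without KO library 1, 5 members were called higher and 0 lower, 71 log2 fold changes were positive and the median was 0.081. Without control library 2, 5 were called higher and 0 lower, 68 were positive and the median was 0.096. Without control libraries 1 and 4, 3 were called higher (Atp5d, Atp5e and Ndufa4), and without control libraries 2 and 3 also 3 (Atp5d, Ndufa4 and Ndufb11). With a neutrophil marker score of each library as covariate, 2 were called higher (Atp5d and Ndufa4), 59 were positive and the median was 0.042. The share of all tested genes called higher also fell in these fits, from 10.4%. It was 9.05% without KO library 1 and 6.89% without control library 2. Without control libraries 1 and 4 it was 4.80%, without 2 and 3 it was 4.74%, and with the neutrophil score 3.83%.

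Exon length moved with the differences. Over all tested genes, the median log2 fold change was 0.16 for the 966 genes with under 1000 bases of annotated exon, 0.11 from 1000 to 2000 bases, 0.041 from 2000 to 4000 bases, -0.042 from 4000 to 6000 bases and -0.16 from 6000 bases. The members are short, with a median of 1064 bases against 3132 in all tested genes. In the same bins their medians were 0.17 (40 members), 0.12 (33), 0.053 (10) and -0.10 (3 members: Ndufab1, Ndufb2 and Atp5g1). Under 4000 bases, members and all genes of like length thus had like medians. The share of positive log2 fold changes differed more. Under 1000 bases it was 85% in members and 64.6% in all genes, and from 1000 to 2000 bases 90.9% and 65.5%. From 2000 to 4000 bases it was 90% and 55.6%, and from 4000 to 6000 bases 33.3% and 43.9%. When the trend of each library against exon length was removed before the fit, the members' median was 0.0076 and 48 of 86 log2 fold changes were positive. That fit called 5 of 86 members higher (Atp5d, Ndufa4, Ndufaf7, Ndufb11 and Uqcrfs1) and 3 lower (Atp5l, Ndufaf4 and Ndufc2). Of all genes in the same fit, 9.67% were called higher and 10.04% lower. The members' shares were below these in both directions.

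**Figure D2:**
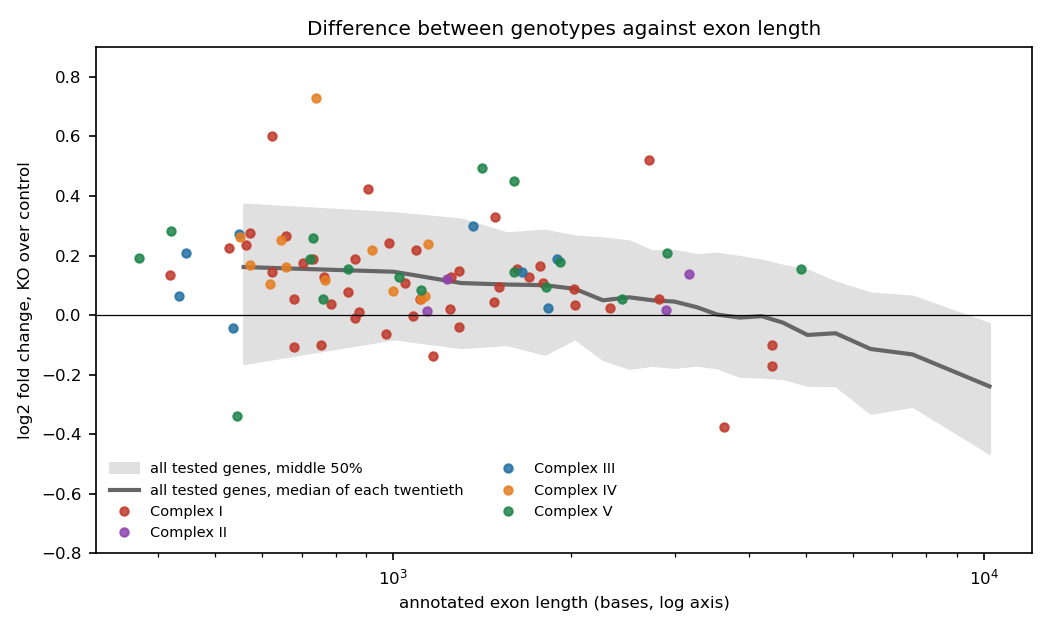
Log2 fold change of each member, KO over control, against annotated exon length in bases (log axis), coloured by complex; the line is the median and the band the middle 50% of all tested genes in 20 length bins. The line falls with length, and most members lie left of 2000 bases, where it is above 0.

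Complex I, the NADH dehydrogenase, is built from catalytic core subunits and a shell of accessory ones. Its 45 symbols had 3 called higher (Ndufa4, Ndufaf7 and Ndufb11), 1 called lower (Ndufaf4) and a median log2 fold change of 0.11. Over all tested genes, 10.4% were called higher and 11.3% lower. None of the 7 nuclear core subunits was called by limma (0 at an unadjusted p under 0.05 as well, and 0 by edgeR, DESeq2 and limma-voom on the recovered reads), although all 7 log2 fold changes were positive, with a median of 0.15. Ndufs1, the largest subunit, which carries iron-sulfur clusters, had 812, 820.1 and 822 normalized counts in KO libraries 1 to 3, against 806, 766, 818 and 766 in control libraries 1 to 4. Its groups overlapped (log2 fold change 0.053, SE 0.060, adjusted p = 0.565; 95% interval -0.084 to 0.19). Ndufv1, which binds NADH, averaged 704 ± 64.8 in KO cells and 627 ± 42.7 in control cells (SD, n = 3 and 4; log2 fold change 0.17, SE 0.087, adjusted p = 0.201).

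Among 29 accessory subunits, Ndufb11 rose, 23 log2 fold changes were positive and the median was 0.096. Ndufb11 (chrX:20615326-20617619), an X-linked subunit of the membrane arm, had 469, 512 and 432 normalized counts in KO libraries 1 to 3, against 344, 342, 373 and 341 in control libraries 1 to 4. Every KO library was above every control, and control library 3 was the highest control (log2 fold change 0.42, SE 0.083, adjusted p = 0.0091). Its call held with each library left out, and was lost with the neutrophil score (log2 fold change 0.42, adjusted p = 0.0899) and without control libraries 1 and 4 (log2 fold change 0.39, adjusted p = 0.0715). With the title number as replicate block the call was lost as well. The gene overlaps Rbm10 on the opposite strand, and with the strand setting of the counting not given, reads of the pair cannot be told apart. Ndufa7, Ndufa3, Ndufa11 and Ndufb10 were also higher in all 3 KO libraries than in any control and missed the threshold, with adjusted p-values of 0.0593, 0.0823, 0.11 and 0.12. The negative end of the accessory subunits was Ndufab1, the mitochondrial acyl carrier protein, at -0.17 (adjusted p = 0.19).

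The assembly factors of complex I, which help to build it but are not part of the finished enzyme, went different ways. Of 8, 1 was called higher and 1 lower, 4 log2 fold changes were positive and 4 negative, and the median was 0.017. Ndufaf7 (chr17:78937136-78948052), a methyltransferase that acts on a core subunit, had 203, 193 and 189.7 normalized counts in KO libraries 1 to 3, against 149, 149.7, 142 and 107 in control libraries 1 to 4. The KO libraries were all higher, and control library 4 was well under the other controls (log2 fold change 0.52, SE 0.14, adjusted p = 0.027). The call was lost when any KO library was left out (log2 fold changes between 0.49 and 0.54, adjusted p between 0.058 and 0.0754). Ndufaf4 (chr4:24898083-24905001), which acts early in assembly, had 150.1, 164 and 128 normalized counts in KO libraries 1 to 3, against 209, 189, 188 and 178 in control libraries 1 to 4. It fell, with all KO values under all control values (log2 fold change -0.37, SE 0.11, adjusted p = 0.0467), but near the threshold: without any one library the call was lost (log2 fold changes between -0.46 and -0.28, adjusted p between 0.0533 and 0.136), as it was with DESeq2, library size or upper quartile scaling or no filter (log2 fold changes between -0.37 and -0.35, adjusted p between 0.052 and 0.0666). Ndufaf3 had a log2 fold change of 0.33 with no overlap between groups and was not called (adjusted p = 0.0863).

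Ndufa4 (chr6:11900292-11907497) showed the smallest p-value of all 86. This subunit, first assigned to complex I, sits in complex IV. It had 436, 490.4 and 459.8 normalized counts in KO libraries 1 to 3, against 305, 323, 296 and 292 in control libraries 1 to 4, with averages of 462 ± 27.2 in KO cells and 304 ± 13.8 in control cells (SD, n = 3 and 4). The lowest KO library was well above the highest control (log2 fold change 0.60, SE 0.078, adjusted p = 0.00178; 95% interval 0.43 to 0.78). The call held under all 23 alternatives, with log2 fold changes between 0.45 and 0.69 and the largest adjusted p at 0.0319. No annotated gene overlaps it.

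**Figure D3:**
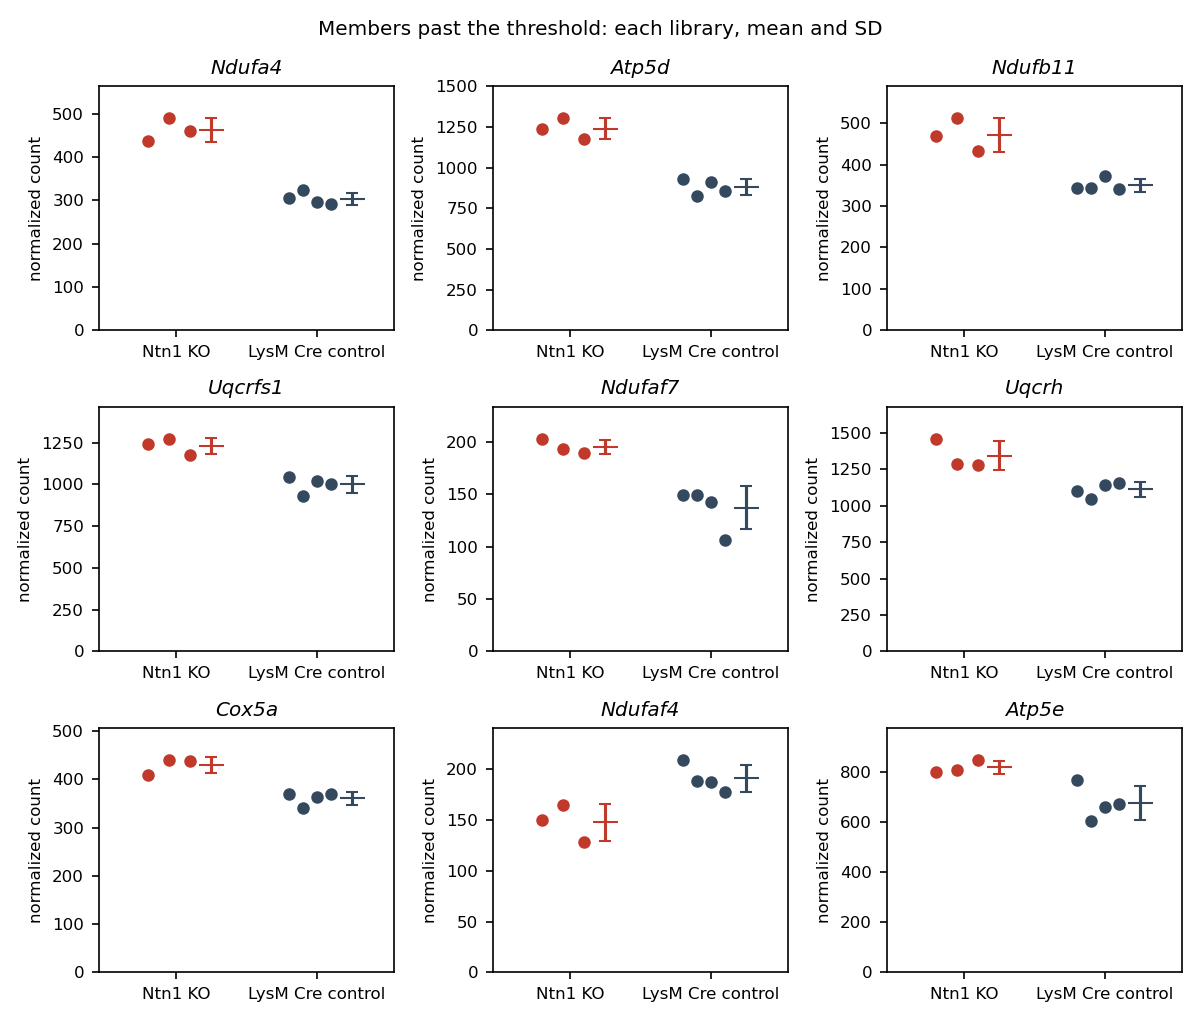
Normalized count in each library (points), with the group mean and SD (bars), for the 9 members past the threshold, KO left of control in each panel. In 8 panels every KO point lies above every control point; in the Ndufaf4 panel every KO point lies below.

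Complex II, succinate dehydrogenase, links the tricarboxylic acid cycle to the chain and is wholly nuclear-encoded. None of its 4 subunits was called by limma (0 at an unadjusted p under 0.05 as well, and 0 by edgeR, DESeq2 and limma-voom on the recovered reads), and the median log2 fold change was 0.069. Sdha, the flavoprotein that oxidises succinate, had 2546, 2526 and 2514 normalized counts in KO libraries 1 to 3, against 2614, 2486, 2427 and 2475 in control libraries 1 to 4; its groups overlapped (log2 fold change 0.017, SE 0.058, adjusted p = 0.86; 95% interval -0.11 to 0.15). Sdhb, the iron-sulfur subunit, had 1463, 1165 and 1231 normalized counts in KO libraries 1 to 3, against 1282, 1151, 1334 and 1319 in control libraries 1 to 4. KO library 1 was the highest there and the other KO libraries lay among the controls (log2 fold change 0.013, SE 0.093, adjusted p = 0.936), and the sign turned without KO library 1 (-0.083) and without control library 2 (-0.034). The membrane anchors Sdhc and Sdhd had log2 fold changes of 0.14 (adjusted p = 0.298) and 0.12 (adjusted p = 0.368), also with KO library 1 as the highest of all libraries.

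In complex III, the ubiquinol-cytochrome c reductase, 2 of 8 members rose (Uqcrfs1 and Uqcrh), where 10.4% of all tested genes did. Its median log2 fold change was 0.17. Uqcrfs1 (chr13:30540308-30545362), the Rieske iron-sulfur protein and a catalytic subunit, had 1242, 1272 and 1177 normalized counts in KO libraries 1 to 3, against 1046, 932, 1018 and 1002 in control libraries 1 to 4. All KO libraries were higher than all controls (log2 fold change 0.30, SE 0.066, adjusted p = 0.0147). The call was lost without KO library 2 (log2 fold change 0.28, adjusted p = 0.0631). It was also lost with either replicate block, with the neutrophil score, without control libraries 1 and 4 and without control libraries 2 and 3. Uqcrh (chr4:116066965-116075071), the hinge protein near the cytochrome c site, had 1459, 1288 and 1283 normalized counts in KO libraries 1 to 3, against 1098, 1046, 1145 and 1157 in control libraries 1 to 4. KO library 1 was the highest, and the groups did not overlap (log2 fold change 0.27, SE 0.073, adjusted p = 0.0297). Its call was lost without KO library 1 (log2 fold change 0.21, adjusted p = 0.0681), without KO library 2 or without control library 1, 2 or 4 (log2 fold changes between 0.24 and 0.30, adjusted p between 0.0531 and 0.0805), and with the length trend removed (log2 fold change 0.11, adjusted p = 0.255). Uqcrh has annotated pseudogenes (Uqcrh-ps1 and Uqcrh-ps2), and the gene Gm12854 overlaps it on the opposite strand, so its count is uncertain. The core protein Uqcrc1 averaged 1218 ± 56.3 in KO cells and 1102 ± 55.3 in control cells with no overlap between groups, and was not called (log2 fold change 0.14, SE 0.067, adjusted p = 0.156). Uqcrc2, the other core protein, was likewise above all controls in all KO libraries (log2 fold change 0.19, adjusted p = 0.0743), while Uqcrb and Uqcrq stood at -0.043 and 0.024, with overlap.

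Complex IV, cytochrome c oxidase, had positive log2 fold changes in all 12 of its members, a median of 0.16 and 1 call (10.4% of all tested genes were called higher). Cox5a (chr9:57521274-57532426), a matrix-side subunit, had 409.7, 440.4 and 438 normalized counts in KO libraries 1 to 3, against 369.7, 341, 363 and 369 in control libraries 1 to 4. The KO libraries were all higher, with control library 2 the lowest (log2 fold change 0.25, SE 0.072, adjusted p = 0.0378). The call was lost when KO library 2 or 3 or any control library was left out (log2 fold changes between 0.22 and 0.26, adjusted p between 0.0569 and 0.125), with DESeq2 on the recovered reads (log2 fold change 0.25, adjusted p = 0.0678), and with the length trend removed (log2 fold change 0.097, adjusted p = 0.394); Gm26631 overlaps the gene on the opposite strand. Cox4i1, the common form of the largest nuclear subunit, had 2202, 2183 and 1971 normalized counts in KO libraries 1 to 3, against 2013, 1878, 1971 and 1944 in control libraries 1 to 4. KO library 3 lay among the controls and the test was not passed (log2 fold change 0.12, SE 0.065, adjusted p = 0.227); with the length trend removed its log2 fold change was -0.027. Cox7a2l, which joins complexes III and IV into supercomplexes and is known in a shortened form in C57BL/6 mice, had 1521, 1598 and 1405 normalized counts in KO libraries 1 to 3, against 1319, 1164, 1234 and 1399 in control libraries 1 to 4. Its KO values were all higher, by a margin of a few counts over control library 4, and it was not called (log2 fold change 0.24, SE 0.082, adjusted p = 0.068). Cox8a and Cox5b had adjusted p-values of 0.0803 and 0.0806. Cox6b2, the testis form of Cox6b1, was near the minimum of counts at 17.2, 26.0 and 11.7 normalized counts in KO libraries 1 to 3, against 10.2, 16.6, 5.31 and 11.3 in control libraries 1 to 4, and its large positive value (log2 fold change 0.73, SE 0.41, adjusted p = 0.228) came with overlapping groups.

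Complex V, the ATP synthase, had 2 of 17 members called higher (10.4% of all tested genes were), 16 positive log2 fold changes and a median of 0.16. Both calls were in the 5 subunits of the soluble F1 part, whose KO libraries were above every control in 5 of 5 (17.4% of all tested genes were) and whose median was 0.21. Atp5d (chr10:80138632-80145818), the delta subunit of the central stalk, had 1241, 1307 and 1174 normalized counts in KO libraries 1 to 3, against 931, 827, 911 and 858 in control libraries 1 to 4. KO and control libraries were far apart (log2 fold change 0.49, SE 0.071, adjusted p = 0.00269), and the call held under all 23 alternatives, with log2 fold changes between 0.39 and 0.53 and the largest adjusted p at 0.0487. The gene Cbarp overlaps Atp5d on the opposite strand. Atp5e (chr2:174461072-174464105), the epsilon subunit of the same stalk, had 802, 809 and 849 normalized counts in KO libraries 1 to 3, against 769, 604, 659 and 675 in control libraries 1 to 4. It rose, with control library 1 close under the KO values (log2 fold change 0.28, SE 0.087, adjusted p = 0.049), but the call was lost without any KO library or without control library 2, 3 or 4 (log2 fold changes between 0.23 and 0.30, adjusted p between 0.0725 and 0.124), with edgeR, DESeq2, limma-voom, TMM scaling or no filter (log2 fold changes between 0.27 and 0.28, adjusted p between 0.0513 and 0.0561) and with the length trend removed (log2 fold change 0.100, adjusted p = 0.428). The third stalk subunit, Atp5c1, stood at 0.095 (adjusted p = 0.309).

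The alpha and beta subunits alternate around the F1 head, and the beta subunit is the catalytic one. Atp5b, the beta subunit, had 7957, 8047 and 8002 normalized counts in KO libraries 1 to 3, against 7729, 6891, 7002 and 6724 in control libraries 1 to 4. Its KO libraries were within a narrow range and control library 1 was the nearest control (log2 fold change 0.18, SE 0.074, adjusted p = 0.118). Atp5a1, the alpha subunit, averaged 6255 ± 59.1 in KO cells and 5421 ± 339 in control cells (SD, n = 3 and 4), with no overlap (log2 fold change 0.21, SE 0.072, adjusted p = 0.0701); DESeq2 on the recovered reads placed it under the threshold (adjusted p = 0.0465). The c ring in the membrane, through which protons pass, is made of 1 protein encoded by 3 genes. As normalized counts per kilobase of annotated exon, Atp5g3 averaged 2216 in KO cells and 1947 in control cells, Atp5g2 394 in KO cells and 331 in control cells, and Atp5g1, with 4912 bases of annotated exon, 86.2 in KO cells and 77.5 in control cells. Atp5g3 was thus the most abundant of the 3 per length. Their log2 fold changes were 0.19 (Atp5g3), 0.16 (Atp5g1) and 0.26 (Atp5g2), none of them called. Atp5l, a membrane subunit that helps the enzyme to pair, had 117, 120.2 and 134 normalized counts in KO libraries 1 to 3, against 163, 172, 141 and 150.5 in control libraries 1 to 4. It was the only member of complex V with a negative log2 fold change, with all KO values under all controls (log2 fold change -0.34, SE 0.11, adjusted p = 0.0612), and it has annotated pseudogenes (Atp5l-ps1, Atp5l-ps2 and Atp5l2-ps), so its count is uncertain. The inhibitor Atpif1, not a member by its symbol, had 189, 161 and 172 normalized counts in KO libraries 1 to 3, against 183, 172, 168 and 218 in control libraries 1 to 4 and overlapping groups (log2 fold change -0.089, SE 0.12, adjusted p = 0.621).

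By library, the mean log2 level over a complex's members was 8.26 ± 0.061 in KO libraries and 8.16 ± 0.073 in control libraries (SD), a difference of 0.10 for complex I. It was 10.42 ± 0.11 in KO libraries and 10.35 ± 0.080 in control libraries (SD), a difference of 0.072 for complex II and 9.56 ± 0.061 in KO libraries and 9.42 ± 0.073 in control libraries (SD), a difference of 0.14 for complex III. For complex IV it was 9.59 ± 0.081 in KO libraries and 9.39 ± 0.081 in control libraries (SD), a difference of 0.20, and for complex V 9.67 ± 0.045 in KO libraries and 9.50 ± 0.064 in control libraries (SD), a difference of 0.16. The complex IV mean gives Cox6b2 (log2 fold change 0.73), which was near the minimum of counts, the same weight as each other member. By the median log2 fold change, complexes IV and V both stood at 0.16. The 3 KO libraries lay above all 4 controls in complexes III, IV and V and overlapped with them in complexes I and II. KO library 1 was the highest library in each complex, and control library 2 the lowest in each but IV, where control library 3 was the lowest. In complex IV, Cox6b2 had 5.31 normalized counts in control library 3 and 16.6 in control library 2. The order of these libraries in complex IV depends on that gene near the minimum. With the neutrophil score as covariate, the median log2 fold change was 0.011 for complex I, -0.036 for II, 0.067 for III, 0.0695 for IV and 0.13 for V. With the length trend removed, it was -0.014 for complex I, -0.0056 for II, 0.0395 for III, 0.0054 for IV and 0.039 for V. Without control libraries 1 and 4 complex I stood at 0.18, and without control libraries 2 and 3 complex IV stood at 0.077.

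**Figure D4:**
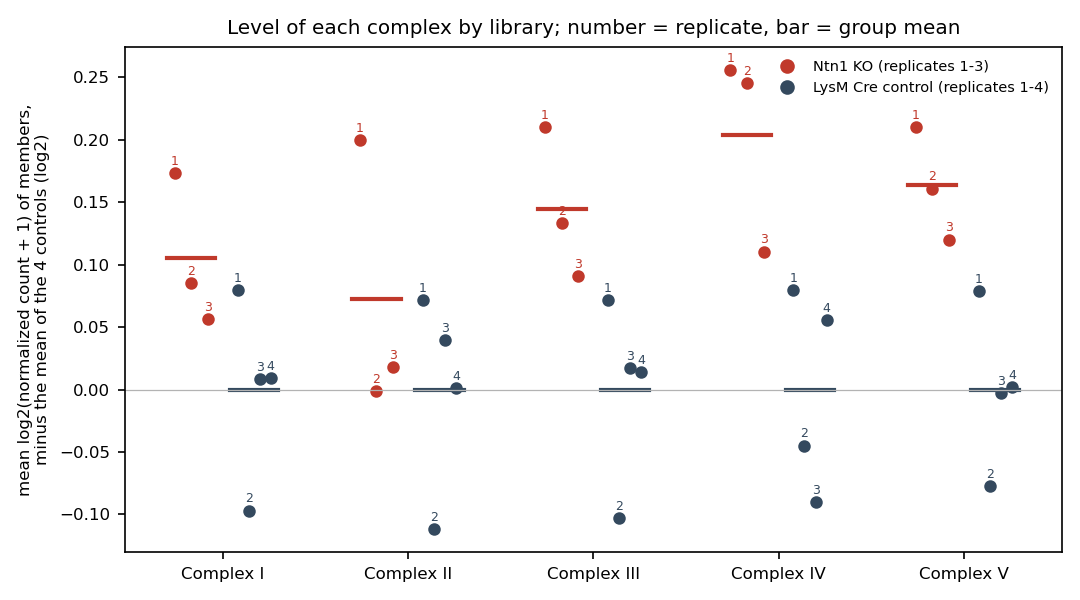
Mean of log2(normalized count + 1) over the members of each complex in every library, as the difference from the mean of the 4 controls; numbers are replicates and bars group means. The 3 KO points lie above all 4 control points in complexes III, IV and V, and KO libraries 2 and 3 lie among the controls in complex II.

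Levels between genes can be set side by side only per length, here as normalized counts per kilobase of annotated exon. Atp5b was the most abundant member, at 4176 in KO cells and 3698 in control cells. Cox4i1 followed with 2769.6 in KO cells and 2551 in control cells, Cox8a with 2666 in KO cells and 2228 in control cells and Uqcrh with 2456 in KO cells and 2032 in control cells. The median level of a complex was 329.7 in KO cells and 334 in control cells for complex I, 913 in KO cells and 871 in control cells for complex II, 820.3 in KO cells and 699.9 in control cells for complex III, 1264 in KO cells and 1087 in control cells for complex IV, and 993 in KO cells and 904 in control cells for complex V. The complex I medians include the assembly factors and Ndufa4, and 35 of its 45 log2 fold changes were positive. Without those genes, its 36 structural subunits had medians of 390 in KO cells and 359 in control cells. Within complex I, core subunits had medians of 397 in KO cells and 353 in control cells, and assembly factors of 72.6 in KO cells and 69.6 in control cells. The assembly factors' median was thus the lowest of the groups named here. Ndufb2, Ndufab1 and Atp5g1 have over 4000 bases of annotated exon, which lowers their level per kilobase, whether or not these cells use those exons.

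**Figure D5:**
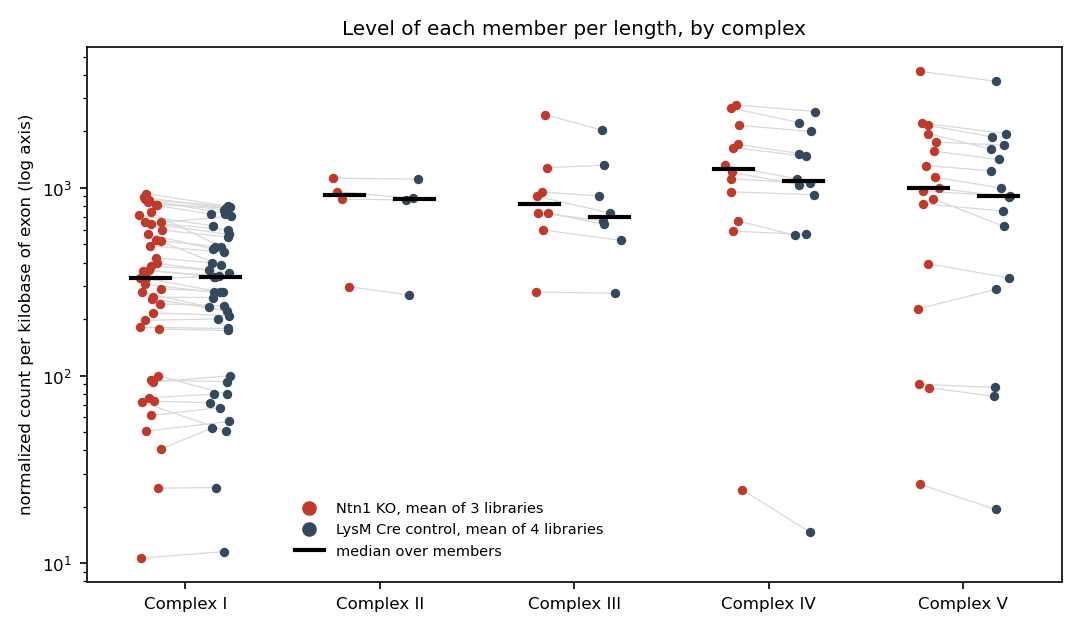
Normalized count per kilobase of annotated exon (log axis) for each member, as the mean of the 3 KO libraries (left) and of the 4 control libraries (right), joined by a line, with the median over members as a bar. Complex I members, here with assembly factors and Ndufa4, sit lowest, with medians of 329.7 in KO cells and 334 in control cells, and complex IV members highest, with 1264 in KO cells and 1087 in control cells. The 36 structural subunits of complex I had medians of 390 in KO cells and 359 in control cells.

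The chain is completed by subunits encoded in mitochondrial DNA. Of 11 in the table, 10 were tested, all with positive log2 fold changes (median 0.26), and 1 rose (10.4% of all tested genes did). mt-Nd6, a complex I core subunit, had 6987, 6289 and 5886 normalized counts in KO libraries 1 to 3, against 5145, 5180.2, 5066 and 5150.0 in control libraries 1 to 4, with no overlap (log2 fold change 0.31, SE 0.075, adjusted p = 0.0201); the call was lost without KO library 2 or control library 2 or 4 (log2 fold changes 0.31 to 0.32, adjusted p between 0.0519 and 0.0605). The gene lies on the opposite strand to its neighbours, and reads from the antisense strand cannot be told apart without the strand setting. DESeq2 on the recovered reads called mt-Nd5 higher as well, and edgeR and limma-voom called mt-Nd6 alone. In limma mt-Nd5 and mt-Co1 had log2 fold changes of 0.25 (adjusted p = 0.108) and 0.041 (adjusted p = 0.863). Together the 11 took 1.83, 1.97 and 1.69% of reads in KO libraries 1 to 3, against 1.79, 1.52, 1.62 and 1.61% in control libraries 1 to 4, and these shares overlapped.

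Factors that build the complexes and lie outside the naming rule differed in few cases. Of 8 further assembly factors of complex I, 6 of complex III and 4 of ATP synthase, limma called 0, as did edgeR, DESeq2 and limma-voom (0, 1 and 2 had an unadjusted p under 0.05). Among 4 for complex II, Sdhaf2, which inserts FAD into Sdha, rose, with 751, 722 and 709 normalized counts in KO libraries 1 to 3, against 607, 606, 567 and 539 in control libraries 1 to 4 and no overlap (log2 fold change 0.33, SE 0.070, adjusted p = 0.0131). Among 19 for complex IV, 1 rose and 1 fell. Cmc2 had 104, 137 and 77.7 normalized counts in KO libraries 1 to 3, against 62.0, 70.5, 53.1 and 52.7 in control libraries 1 to 4 (log2 fold change 0.80, SE 0.21, adjusted p = 0.0259), and Coa7 had 101, 77.9 and 94.0 normalized counts in KO libraries 1 to 3, against 146, 144, 134 and 133 in control libraries 1 to 4 (log2 fold change -0.61, SE 0.12, adjusted p = 0.00993), both without overlap. For Cmc2 the call was lost without KO library 1 or 2 or control library 3 or 4 (log2 fold changes 0.60 to 0.80, adjusted p between 0.0549 and 0.0908). Of 13 tested regulators of mitochondrial biogenesis 3 fell and 0 rose, where 11.3% of all tested genes fell and 10.4% rose, with a median of -0.063. By edgeR 0 of the 13 were called higher and by limma-voom 1, and in limma 2 had a 95% interval above 0. The only regulator that DESeq2 called higher was Ppargc1a, which is not among the 13. The 3 that fell were Pprc1 and Ppargc1b, coactivators of the PGC-1 family, and Polg, the mitochondrial DNA polymerase. Pprc1 had 320.4, 443 and 453 normalized counts in KO libraries 1 to 3, against 595, 591, 559 and 594 in control libraries 1 to 4 (log2 fold change -0.54, SE 0.12, adjusted p = 0.0146). Ppargc1b averaged 87.4 ± 14.3 in KO cells and 139 ± 24.5 in control cells (SD, n = 3 and 4; log2 fold change -0.66, SE 0.17, adjusted p = 0.0262); the call was lost without KO library 1 or 2 or control library 2 or 3 (log2 fold changes -0.64 to -0.55, adjusted p between 0.0517 and 0.0936). Ppargc1a, the family's best known member, was under the minimum for the test, with 12.2, 20.2 and 19.0 normalized counts in KO libraries 1 to 3, against 2.03, 0, 1.77 and 0 in control libraries 1 to 4. It was low in all libraries, and the KO libraries lay above the controls, of which 2 had no read; with no filter on low values limma gave a log2 fold change of 3.38 (adjusted p = 0.00344). The factors whose motifs were searched, Nrf1, Gabpa and Yy1, had log2 fold changes of 0.036, -0.063 and -0.14 and were not called, with adjusted p-values of 0.789, 0.598 and 0.15.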

How the data were processed

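RNA-seq of 3 Ntn1 KO and 4 LysM Cre libraries was used, grouped by their labelled genotype. The submitters' processing notes name cutadapt 1.15, STAR 2.5.3a, HTSeq, DESeq2 and the build GRCm38 (mm10); not given in the sources used here are the strand setting, the annotation and the versions of the last 2 tools. Values for 16476 genes were deposited by the authors as 1 signal column per library, that is, normalized read counts scaled to library depth. Per the file headers, the table also holds the authors' base mean (a signal), log2 fold change and its error, a test statistic (a score), p-values and adjusted p-values; the adjusted p is missing for 650 genes. All deposited signal values (100.0%) were whole multiples of the value of 1 read within 0.01, so whole reads were recovered; a count of 0 allows 3 reads, or 2.65 to 3.76 normalized counts. Between libraries of a group, chi-square values per gene of 7.85 to 31.8 showed that no library was a copy of another.

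Since the values were normalized, limma 3.58.1 (R 4.3.3, eBayes with trend) was fitted on log2(normalized count + 1) to the 12963 genes with a mean of at least 10, KO minus control, with Benjamini-Hochberg adjustment over all of them; fold changes understate those of low genes. Intervals are 95%. Values per complex, list and library have no test. Ntn1 was under the minimum and had a 2-sided exact permutation test. Alternatives were other scalings, pseudocounts and filters, edgeR 4.0.16 (1365 higher and 1497 lower over all genes), DESeq2 1.42.0 and limma-voom on the recovered reads, replicate blocks, a neutrophil score, removal of a loess trend on exon length, and libraries left out. The script was tested on simulated data. Exon lengths, positions and overlaps were taken from GENCODE M21 (GRCm38, 99.81% of identifiers matched). By it 30 members overlap a gene on the opposite strand, Atp5a1 among them, and 12 overlap a gene on the same strand, Atp5b and Cox4i1 among them. Pseudogenes of their name exist for 5 (Ndufab1, Uqcrh, Atp5l, Atp5k and Atp5c1). The counts of all these members are uncertain. Promoters came from RefSeq.

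The members and lists were chosen with earlier results of these data known. Named genes were, per complex, up to 4 higher and 4 lower members past the threshold with the smallest p (2 with the smallest p where fewer than 2 passed), core subunits, c-ring genes, isoforms typical of one tissue, Atpif1, Ndufa4, Cox7a2l, up to 2 genes per direction of each list, and the genes next to the minimum, 39 in all; 1 of these, a member, is not reported here by itself but counts in the totals. Ndufa2, Ndufa3, Ndufa7, Ndufa11, Ndufab1, Ndufaf3, Ndufb2, Ndufb10, Ndufc2, Uqcrb, Uqcrc2, Uqcrq, Cox5b, Cox8a, Atp5c1, Atp5l, Lyz2, Polg, Ppargc1a, mt-Nd5, mt-Co1, Nrf1, Gabpa and Yy1 were named after their values were seen.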

Additional observations from a re-analysis of the deposited data

Results flagged for a closer look

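Among 46 genes checked in the 4 control libraries, 4 had 1 library far from the other 3, where chance gives about 1 in 20. Ndufb11 had 373 normalized counts in control library 3, above the 341 to 344 of the other controls and below all KO libraries. Ndufaf7 had 107 normalized counts in control library 4, under the 142 to 149.7 of the other controls; without that library it was still called (log2 fold change 0.41, adjusted p = 0.0356). Idh3g, the gamma subunit of isocitrate dehydrogenase, had 735 normalized counts in control library 3, against 676 to 677 in the other controls. Pprc1 had 559 normalized counts in control library 3, against 591 to 595 in the other controls.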

How the results depend on the processing

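Over up to 23 alternatives for each gene named by the rule, 673 comparisons kept direction and side of the threshold, 163 lost and 3 gained the call, and 11 reversed, none of these past the threshold. The count of members called higher (8) was 2 with the title number as replicate block (Atp5d and Ndufa4) and 3 with the description number (Atp5d, Ndufa4 and Ndufb11), 2 with the neutrophil score, 5 with the length trend removed, 3 without control libraries 1 and 4, 3 without 2 and 3, and 3 to 8 with 1 library left out. In the same order, the share of all tested genes called higher (10.4%) was 3.28, 4.68, 3.83, 9.67, 4.80 and 4.74%, and 5.35 to 9.05% with 1 library left out. The count called lower (1) was 0 under library size or upper quartile scaling, no filter, DESeq2, both blocks, the neutrophil score and both control pairs left out, 0 to 0 with 1 library left out, and 3 with the length trend removed. The neutrophil score gave medians of 0.0108 (complex I), -0.0356 (II), 0.0672 (III), 0.0695 (IV), 0.1277 (V) and 0.0421 (members). Length removal gave -0.0138 (I), 0.0395 (III), 0.0054 (IV), 0.0387 (V) and 0.0076 (members). Complex I was 0.1764 without controls 1 and 4, and complex IV 0.0767 without 2 and 3. With 1 library left out, medians were 0.0579 to 0.1328 (I), 0.0296 to 0.1237 (II), 0.125 to 0.222 (IV) and 0.0813 to 0.1576 (members). Sdhb (-0.0834 to 0.0807 with 1 library left out) reversed with the neutrophil score (-0.1884), length removal (-0.1071), without KO library 1 (-0.0834), control library 2 (-0.0343) or both 2 and 3 (-0.0222); Sdha with length removal (-0.0172) and without controls 2 and 3 (-0.0086); Cox4i1 with length removal (-0.0271); Sdhc (-0.0584) and Sdhd (-0.0128) with the neutrophil score; and Atpif1 without controls 1 and 4 (0.0255). The cause was not tested. Same-numbered libraries correlated at -0.229, -0.025 and -0.188 (title) and -0.077, -0.285 and 0.076 (description), which gave no clear sign of pairing. With 3 pairs per numbering, these values cannot exclude that same-numbered libraries were handled together. Over all genes the blocks called 425 higher and 372 lower, and 607 and 606. With 3 and 4 libraries, median standard errors of 0.087 in members limit what could be called to differences well above the members' median.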

Other observations

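Genes that feed the chain gave a few further differences, set here beside 10.4% of all tested genes called higher and 11.3% called lower. Of 16 genes of pyruvate dehydrogenase and the tricarboxylic acid cycle, 15 had positive log2 fold changes (median 0.100) and 1 rose. Idh3g had 877, 829 and 797 normalized counts in KO libraries 1 to 3, against 677, 676, 735 and 676 in control libraries 1 to 4 (log2 fold change 0.27, SE 0.067, adjusted p = 0.023); the call was lost without KO library 1 or 2 or control library 2 or 4 (log2 fold changes 0.23 to 0.27, adjusted p between 0.0549 and 0.0709). Of 20 genes of electron carriers and quinone supply, with a median of 0.040, Coq2 rose. Coq2, which attaches the side chain of ubiquinone, had 268, 318 and 315 normalized counts in KO libraries 1 to 3, against 228, 233, 213 and 248 in control libraries 1 to 4, with no overlap (log2 fold change 0.38, SE 0.097, adjusted p = 0.0258); the call was lost without KO library 2 or 3 or control library 1, 2 or 3 (log2 fold changes 0.33 to 0.38, adjusted p between 0.0508 and 0.0981). Of 6 carriers and channels for nucleotides and phosphate, 2 rose, with a median of 0.076. Both exchange ADP for ATP across the inner membrane. Slc25a5 had 4842, 4911 and 4633 normalized counts in KO libraries 1 to 3, against 4153, 3914, 4246 and 3975 in control libraries 1 to 4 (log2 fold change 0.24, SE 0.064, adjusted p = 0.0312). Slc25a4 had 861, 1008 and 892 normalized counts in KO libraries 1 to 3, against 793, 614, 765 and 682 in control libraries 1 to 4 (log2 fold change 0.37, SE 0.10, adjusted p = 0.0343). In both, every KO library lay above every control. For Slc25a5 the call was lost without KO library 1 or 2 or control library 1, 2 or 4 (log2 fold changes 0.22 to 0.25, adjusted p between 0.0519 and 0.109), and for Slc25a4 the call was lost without KO library 2 or 3 or control library 2 or 4 (log2 fold changes 0.30 to 0.39, adjusted p between 0.0641 and 0.122). Of 12 genes for the handling of mitochondrial RNA, Lrpprc, which stabilises mitochondrial messenger RNA, fell. It had 637, 650.0 and 674 normalized counts in KO libraries 1 to 3, against 826, 789.6, 725 and 777 in control libraries 1 to 4, with no overlap (log2 fold change -0.25, SE 0.068, adjusted p = 0.031); the call was lost without KO library 1, 2 or 3 or control library 1, 2 or 4 (log2 fold changes -0.27 to -0.22, adjusted p between 0.0523 and 0.095).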
